A study of Mus musculus with 16 samples.

Results

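The genes described here carry the type I interferon signal into the cell and sense the RNA that starts it. They are the receptor subunits Ifnar1 and Ifnar2, the RNA sensors Tlr7 and Ifih1, the factors Stat2 and Irf9, and the interferon regulatory factors Irf7, Irf8 and Irf1. All 9 genes were chosen by name, with earlier results of these data known, and all 9 were present among the 19999 genes of the deposited counts. Each was read as unique molecular identifiers (UMIs) in nuclei of the medial PFC from 16 male mice aged 22 weeks, with 4 mice per group. WT mice were of the B6;129 strain. 3xTg-AD mice, bred on that background, carry, among their alleles, transgenes for human mutant APP (APPSwe) and mutant tau, driven by a Thy1 promoter and so mostly neuronal. WT_alcohol and 3xTg-AD_alcohol mice had breathed intermittent ethanol vapor over repeated weekly cycles, with ethanol and pyrazole injected. The WT_control and 3xTg-AD groups breathed air and also received pyrazole, the inhibitor of alcohol dehydrogenase that all 4 groups shared. The 3xTg-AD mutations and any other difference between the 2 strains cannot be told apart.

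Type I interferons bind a receptor of 2 chains, Ifnar1 and Ifnar2. The kinases on these chains phosphorylate STAT proteins, and Stat2 then joins Irf9 in a complex that enters the nucleus and binds interferon-stimulated response elements. Interferon production starts upstream, where Tlr7 reads single-stranded RNA in endosomes and Ifih1 (MDA5) reads long double-stranded RNA in the cytosol. Irf7 is the factor that amplifies interferon production. Irf8 sets the identity of microglia and other myeloid cells, and Irf1 is the factor best known from the response to interferon gamma. Stat2, Irf9, Irf7, Irf1 and Ifih1 are themselves induced by interferon.

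The 9 genes gave 27690 UMIs in 114512 nuclei. Ifnar1 (7333 UMIs), Stat2 (7123) and Irf9 (5966) gave most of them, Ifnar2 gave 3344, Irf8 1434 and Irf1 1176. Irf7 (495), Ifih1 (428) and Tlr7 (391) were sparse, with a UMI in as few as 9, 8 and 6 nuclei of a mouse. No member was at 0 over all nuclei of any mouse. Mice gave 4955 to 9096 nuclei and 9622031 to 17544364 UMIs. Values are given as counts per 1e6 UMIs of the same mouse and cell class (CPM), and errors are SDs between mice, which hold counting error too. Nuclei took a cell class from the markers of their cluster, and 36066 (31.5%) stayed unnamed. These classes are microglia-like, endothelial-like and so on, since they were rebuilt from counts. A total of 1694 barcodes occurred in more than 1 library, in 3400 nuclei. In mouse 34 of the 3xTg-AD_alcohol group, 5 of the 9 members exceeded their level in every other mouse over all nuclei. How many of all genes did so was not counted, so this is a description of mouse 34. Results of the members that rest on mouse 34 are therefore given with and without it.

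Sequences before 4 of the genes are shown because 3 of them (Stat2, Irf7 and Ifih1) stood high together in mouse 34, and because Irf1 holds the other motif searched. They are RefSeq sequences of build GRCm38.p6 (the mm10 assembly), 5′ to 3′ on the strand of the gene, ending at the annotated start or, for Irf7, at the start of the longest annotated gene model. Capitals mark a motif. Stat2 is at chr10:128270248-128270497 (plus strand), Irf7 at chr7:141266482-141266674 (minus strand), Ifih1 at chr2:62646256-62646505 (minus strand) and Irf1 at chr11:53769764-53770013 (plus strand).
Stat2: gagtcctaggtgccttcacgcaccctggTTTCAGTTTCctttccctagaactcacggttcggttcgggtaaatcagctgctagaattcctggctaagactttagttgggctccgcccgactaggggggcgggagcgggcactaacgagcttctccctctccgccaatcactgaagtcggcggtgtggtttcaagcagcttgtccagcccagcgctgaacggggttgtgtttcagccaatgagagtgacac
Irf7: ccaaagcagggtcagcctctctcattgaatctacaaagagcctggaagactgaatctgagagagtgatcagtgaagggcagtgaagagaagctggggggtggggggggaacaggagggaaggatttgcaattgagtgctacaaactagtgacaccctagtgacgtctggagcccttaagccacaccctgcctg
Ifih1: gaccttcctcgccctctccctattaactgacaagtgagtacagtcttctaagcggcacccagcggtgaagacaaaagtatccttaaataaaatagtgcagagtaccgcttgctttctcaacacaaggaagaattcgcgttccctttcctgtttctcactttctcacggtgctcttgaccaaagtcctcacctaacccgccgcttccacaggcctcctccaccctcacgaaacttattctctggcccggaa
Irf1: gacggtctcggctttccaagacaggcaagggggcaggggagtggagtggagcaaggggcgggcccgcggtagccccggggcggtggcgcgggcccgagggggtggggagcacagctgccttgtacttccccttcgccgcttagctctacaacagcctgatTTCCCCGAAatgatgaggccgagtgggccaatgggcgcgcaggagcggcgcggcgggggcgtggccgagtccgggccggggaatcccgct

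An interferon-stimulated response element was searched on both strands as GAAA, any 2 bases and GAAA again, and a STAT site as ttcnnngaa, in the 250 bases before each annotated start. The 8 members with an entry had 11 such windows. The first pattern was in 1 of the 11, that of Stat2, where it began 222 bases before the start on the opposite strand. The same letters were in 2.98% of 32851 mouse windows. The pattern ttcnnngaa was in 3 of the 11 windows, those of Irf8, Irf1 and Ifnar2, and in 7.02% of all windows. No member window held both motifs. A match of letters is a description of the window.

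Ifnar1 (chromosome 16, 91485238 to 91507441, plus strand) and Ifnar2 (chromosome 16, 91372783 to 91405589, plus strand) had UMIs in nuclei of every class. Neuronal markers did too. The 8 glutamatergic markers summed to 3894 CPM in glutamatergic neurons, and to between 69.7% and 92.5% of that in the other classes except GABAergic neurons (41.05%). Ifnar1 stood at 65.8% to 98.6% of its glutamatergic level outside microglia-like (161%) and endothelial-like nuclei (302%), and levels in the range of these markers cannot be told apart from free neuronal RNA. Ifnar1 was highest in endothelial-like nuclei, at 117 CPM ± 48.2 (SD, n = 16 mice), followed by microglia-like nuclei at 57.1 CPM ± 14.1. The level in microglia-like nuclei stood clear of the next one, 36.3 CPM ± 3.61 in glutamatergic neurons, beyond 1 SD on either side. Below that, OPC, GABAergic neurons, oligodendrocytes and astrocytes lay between 35.5 and 29.97 CPM, and neighbors in this order overlapped. Ifnar2 was likewise highest in endothelial-like nuclei (124 CPM ± 64.1) and lowest in glutamatergic (11.9 CPM ± 1.78) and GABAergic neurons (11.5 CPM ± 3.09). The endothelial values rest on 640 nuclei, of which 24.7% also carried markers of a second class. Ifnar2 shares 13869 bases with a predicted gene on the same strand (Gm21970), so reads of shared exons could have been lost or split.

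The receptor genes did not pass the test in any comparison over all nuclei or in the 5 classes where their counts passed the filter (glutamatergic and GABAergic neurons, astrocytes, microglia-like and endothelial-like nuclei). Over all nuclei Ifnar1 was at 33.8 CPM ± 2.29 in WT_control mice, 35.1 ± 2.93 in WT_alcohol, 33.1 ± 2.86 in 3xTg-AD and 33.8 ± 3.09 in 3xTg-AD_alcohol (n = 4 each), and the groups overlapped. The log2 fold change of Ifnar1 in 3xTg-AD_alcohol versus WT_control mice was -0.03 (SE 0.09). For Ifnar2 it was 0.21 (SE 0.11, edgeR adjusted p = 0.292). The lowest unadjusted edgeR p of the receptor genes (0.0455) was that of Ifnar2 in endothelial-like nuclei of 3xTg-AD versus WT_control mice, at 162 CPM ± 76.2 versus 70.4 ± 44.2, with a log2 fold change of 0.89 (SE 0.44) and an edgeR adjusted p = 0.812. In oligodendrocytes, where the main fit held no member, Ifnar1 was at 38.2, 56.7, 55.9 and 53.3 CPM in WT_control mice (48 UMIs in all), 8.74 to 27.7 CPM in WT_alcohol (17 UMIs), 12.98 to 35.0 CPM in 3xTg-AD (12 UMIs) and 24.3 to 44.0 CPM in 3xTg-AD_alcohol mice (35 UMIs). The WT_control mice lay above the WT_alcohol and 3xTg-AD mice there and overlapped the 3xTg-AD_alcohol mice, and with no filter on low counts Ifnar1 was not called. WT_alcohol mice 6 and 7 gave 1 UMI each there, and WT_control mouse 28 gave 3. How many of all genes lay apart in this way was not counted, so these levels are a description.

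Tlr7 (chromosome X, 167304929 to 167330558, minus strand) had its highest level in microglia-like nuclei. Its mean level there was 46.8 CPM ± 29.9 (n = 16), against 2.12 ± 4.61 in endothelial-like nuclei and less than 1 CPM in neurons, astrocytes, OPC and oligodendrocytes. No UMI of Tlr7 was found in 696 VLMC-like nuclei, which at 1006994 UMIs allows up to 2.98 CPM (3 counts, counting error only). Microglia-like nuclei held 46.04% of the 391 Tlr7 UMIs (180) and glutamatergic neurons 25.32% (99), so values over all nuclei also count UMIs from other nuclei. The source of the low values outside microglia-like nuclei (free RNA in the droplets, mixed nuclei or transcription there) was not tested. In glutamatergic neurons Tlr7 stood at 1.38% of its level in microglia-like nuclei, and the 15 microglial markers summed stood at 1.69%. In astrocytes these shares were 1.65% and 3.99%. Outside microglia-like nuclei the share of Tlr7 was thus no higher than that of the microglial markers.

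**Figure D1:**
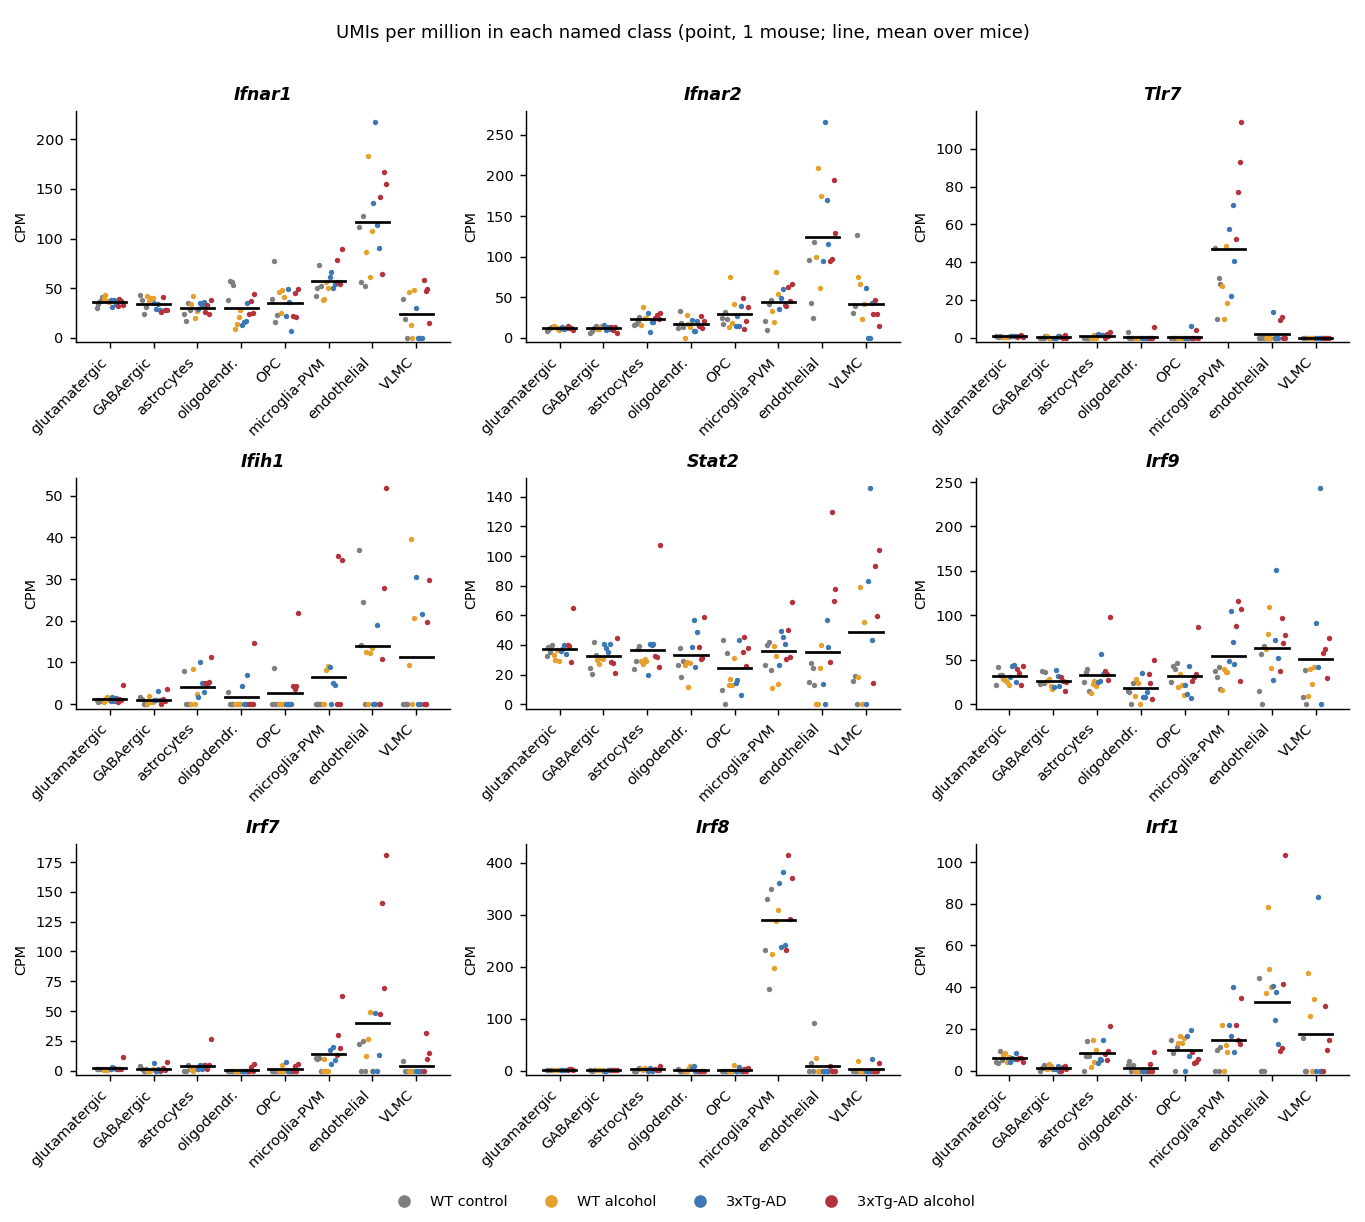
Level of each member (CPM, linear axis) in 8 marker-named classes. A point is 1 mouse, colored by group, and the black line is the mean over mice. Irf8 and Tlr7 stand high in microglia-like nuclei alone (means 289 and 46.8 CPM), Ifnar1 and Ifnar2 are highest in endothelial-like nuclei, and Stat2 lies between 24.2 and 48.8 CPM in all 8.

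Tlr7 was higher in 3xTg-AD_alcohol mice than in either WT group. Over all nuclei WT_control mice 26, 27, 28 and 36 had 1.43, 0.624, 1.19 and 0.735 CPM. WT_alcohol mice 6, 7, 17 and 18 had 1.13, 0.721, 1.25 and 0.709 CPM. 3xTg-AD mice 12, 13, 14 and 21 had 2.02, 1.62, 2.83 and 2.28 CPM. 3xTg-AD_alcohol mice 4, 31, 33 and 34 had 1.89, 2.94, 3.15 and 3.86 CPM. Each of the 8 3xTg-AD mice lay above each of the 8 WT mice, and within a genotype the air and alcohol groups overlapped. The nearest pair was 3xTg-AD mouse 13 (1.62 CPM, 19 UMIs) and WT_control mouse 26 (1.43 CPM, 20 UMIs), a gap within counting error. The log2 fold change of Tlr7 in 3xTg-AD_alcohol versus WT_control mice was 1.505 (SE 0.32, edgeR adjusted p = 0.0147), and without mouse 34 it was 1.35 (SE 0.34, edgeR adjusted p = 0.0494). Versus WT_alcohol mice it was 1.62 (SE 0.31, edgeR adjusted p = 0.0189). That call was lost without mouse 34 (1.46, edgeR adjusted p = 0.0660) and without WT_alcohol mouse 7 or 18 or 3xTg-AD_alcohol mouse 31 or 33 (edgeR adjusted p between 0.0511 and 0.0632). In the air groups the log2 fold change of 3xTg-AD versus WT_control mice was 1.065 (SE 0.33), with an edgeR p of 0.00484 that did not pass adjustment (adjusted p = 0.264).

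Microglia-like nuclei also made up a larger share of the nuclei where Tlr7 was higher. They were 1.29% to 2.80% of nuclei in WT_control mice, 1.501% to 3.19% in WT_alcohol, 2.72% to 3.46% in 3xTg-AD and 2.72% to 5.43% in 3xTg-AD_alcohol mice, with the highest share in mouse 34. The 15 microglial markers summed to 132 to 198 CPM over all nuclei in WT_control mice, 187 to 246 in WT_alcohol, 169 to 272 in 3xTg-AD and 221 to 333 in 3xTg-AD_alcohol mice, with none at 0 in microglia-like nuclei. Over all nuclei, fewer cells of a type and less RNA per cell cannot be told apart.

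Within microglia-like nuclei, where the share of nuclei does not enter, Tlr7 was at 47.7, 10.0, 31.6 and 28.7 CPM in WT_control mice (18 UMIs in all). It was at 27.4, 9.86, 48.5 and 18.2 CPM in WT_alcohol mice (22 UMIs) and at 57.3, 22.1, 70.3 and 40.4 CPM in 3xTg-AD mice (40 UMIs). In 3xTg-AD_alcohol mice it was at 52.5, 77.1, 93.1 and 114 CPM (100 UMIs), above all WT mice, while the 3xTg-AD group overlapped the others. The log2 fold change of 3xTg-AD_alcohol versus WT_alcohol mice was 1.56 (SE 0.36, edgeR adjusted p = 0.0142). Tlr7 passed the filter on low counts in these nuclei through the 3xTg-AD_alcohol mice, so the call is no independent support. The call was lost without mouse 34 (1.37, edgeR adjusted p = 0.1201) and without WT_alcohol mouse 6, 7 or 18 (edgeR adjusted p up to 0.125), and DESeq2 gave an adjusted p = 0.0833. Versus WT_control mice the log2 fold change was 1.36 (SE 0.39, edgeR adjusted p = 0.0608) and versus 3xTg-AD mice 0.82 (SE 0.32, edgeR adjusted p = 0.470), neither of which passed. Markers of other classes in these nuclei moved with the called comparison. The 10 astrocyte markers summed to 1037 to 1663 CPM in 3xTg-AD_alcohol and 1897 to 2512 CPM in WT_alcohol mice, and the 8 glutamatergic markers to 3015 to 3398 and 3434 to 4004 CPM. Their part in the level of Tlr7 was not tested.

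**Figure D2:**
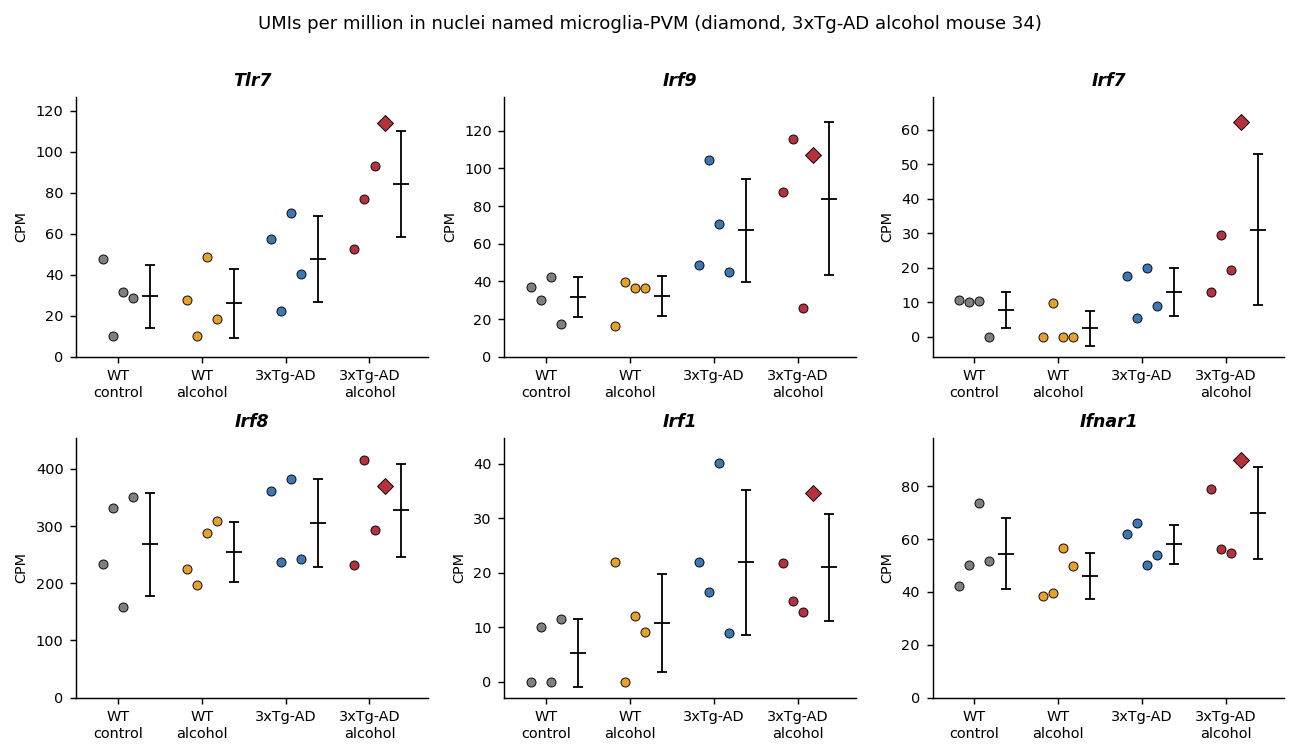
Levels of 6 members in microglia-like nuclei (CPM, linear axis) by group. Points are mice, the diamond is 3xTg-AD_alcohol mouse 34, and bars give mean ± SD (n = 4). For Tlr7 the 3xTg-AD_alcohol mice (52.5 to 114 CPM) lie above all 8 WT mice (9.86 to 48.5 CPM), and for Irf8 all groups overlap.

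Ifih1 (chromosome 2, 62595798 to 62646255, minus strand) was low in every class. Its highest means were 13.9 CPM ± 15.2 in endothelial-like and 11.4 ± 14.1 in VLMC-like nuclei, each with mice at 0, and the neurons had 1.26 ± 0.97 and 1.11 ± 1.08. Over all nuclei WT_control mice had 1.999, 0.831, 0.917 and 0.955 CPM, WT_alcohol mice 1.13, 2.27, 1.65 and 1.83, and 3xTg-AD mice 1.37, 2.21, 1.80 and 1.79. 3xTg-AD_alcohol mice 4, 31 and 33 had 1.24, 2.50 and 1.91 CPM, within or just above those ranges, and mouse 34 had 7.41. The log2 fold change versus WT_control mice was 1.37 (SE 0.48, edgeR adjusted p = 0.112), and 0.58 (SE 0.37) without mouse 34. Ifih1 was tested over all nuclei and in glutamatergic neurons, and was not called there in any comparison. In microglia-like nuclei, where it did not pass the filter on low counts, it was at 0 in the 4 WT_control mice, at 0 to 9.08 CPM in WT_alcohol and 0 to 8.82 CPM in 3xTg-AD mice, and at 0, 35.6, 0 and 34.6 CPM in 3xTg-AD_alcohol mice 4, 31, 33 and 34. With no filter it was called there in 3xTg-AD_alcohol versus WT_control mice (edgeR adjusted p = 0.0315), a call that rests on 2 mice of 4.

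Stat2 (chromosome 10, 128270559 to 128292849, plus strand) had UMIs in all classes of the medial PFC. Against glutamatergic neurons its pooled level was 67.4% in OPC, 88.6% in oligodendrocytes, 97.9% in astrocytes and 98.4% in microglia-like nuclei, where the glutamatergic markers summed stood at 71.5%, 77.4%, 69.7% and 88.5%. What share of these levels was free neuronal RNA was not tested. Its mean lay between 24.2 CPM in OPC and 48.8 CPM in VLMC-like nuclei, every neighbor in the order overlapped, and microglia-like nuclei (35.8 ± 14.6) held no more than glutamatergic neurons (37.2 ± 8.402). Of the 696 VLMC-like nuclei, 31.03% also carried markers of a second class, and in WT_control mice astrocyte markers summed there to 4655 to 7983 CPM, against 509 to 4174 CPM for VLMC markers. The VLMC-like levels of all members rest on these nuclei. Among neurons named by layer markers, Stat2 had its highest mean in layer 6 corticothalamic neurons, at 48.5 CPM ± 12.2 (27.3 to 79.8 over mice). Layer 6 intratelencephalic (22.2 to 83.6 CPM), near-projecting (17.9 to 60.3) and somatostatin neurons (19.1 to 75.0) overlapped them. Corticothalamic neurons exceeded layer 2/3 intratelencephalic neurons (33.5 CPM ± 7.33) in 15 of 16 mice, by 15.05 CPM ± 8.78. Ifih1 had its highest neuronal mean in the same corticothalamic class (3.22 CPM ± 2.32), above layer 2/3 in 13 of 16 mice. Irf9 (chromosome 14, 55603571 to 55610030, plus strand), the DNA-binding partner of Stat2, also had UMIs in all classes, with mean levels from 18.3 CPM ± 13.8 in oligodendrocytes to 53.7 ± 32.8 in microglia-like and 63.3 ± 37.1 in endothelial-like nuclei. Against glutamatergic neurons Irf9 stood at 68.6% in oligodendrocytes, below the glutamatergic markers there, and at 185% in microglia-like nuclei. Its gene model shares 123 bases with the end of Rnf31 on the same strand.

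Over all nuclei Stat2 did not pass the test in any comparison. WT_control mice had 27.3, 34.5, 32.5 and 34.2 CPM, WT_alcohol mice 27.5, 26.7, 29.6 and 26.2, and 3xTg-AD mice 33.8, 35.3, 34.5 and 32.1. 3xTg-AD_alcohol mice 4, 31 and 33 had 33.9, 36.6 and 23.9 CPM, and mouse 34 had 63.1. The log2 fold change of 3xTg-AD_alcohol versus WT_alcohol mice was 0.54 (SE 0.20, edgeR adjusted p = 0.215), and 0.20 (SE 0.12) without mouse 34. For Irf9 it was 0.68 (SE 0.23, edgeR adjusted p = 0.176), and 0.46 (SE 0.21) without mouse 34.

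In microglia-like nuclei Irf9 was at 37.1, 30.1, 42.1 and 17.2 CPM in WT_control mice (17 UMIs in all) and at 16.5, 39.4, 36.4 and 36.3 CPM in WT_alcohol mice (24 UMIs). It was at 48.5, 105, 70.3 and 44.9 CPM in 3xTg-AD mice (54 UMIs) and at 87.5, 116, 25.7 and 107 CPM in 3xTg-AD_alcohol mice (98 UMIs). All 3xTg-AD mice and all 3xTg-AD_alcohol mice but mouse 33 lay above every WT mouse. None of the 6 planned comparisons passed, the nearest being 3xTg-AD_alcohol versus WT_alcohol (log2 fold change 1.39, SE 0.37, edgeR adjusted p = 0.0559).

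Irf7 (chromosome 7, 141262706 to 141266481, minus strand) was highest in endothelial-like nuclei (39.6 CPM ± 52.4, 43 UMIs) and microglia-like nuclei (13.6 CPM ± 15.5, 53 UMIs), which overlapped, and lay at 3.83 CPM or less in astrocytes, neurons, OPC and oligodendrocytes. In endothelial-like nuclei the 3xTg-AD_alcohol mice had 47.3, 140, 69.4 and 181 CPM, and the other 12 mice had 0 to 48.8 CPM with 5 of them at 0. Irf7 did not pass the filter on low counts there, so this was not tested in the main fit.

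Over all nuclei Irf7 was higher in 3xTg-AD_alcohol mice than in both WT groups. WT_control mice had 1.43, 1.14, 1.19 and 1.32 CPM, WT_alcohol mice 0.636, 1.13, 0.855 and 1.005, and 3xTg-AD mice 2.58, 2.64, 2.06 and 1.46. 3xTg-AD_alcohol mice 4, 31 and 33 had 1.77, 3.06 and 2.08 CPM, and mouse 34 had 13.04. Each of the 8 3xTg-AD mice again lay above each of the 8 WT mice. The nearest pair was 3xTg-AD mouse 21 (1.46 CPM, 18 UMIs) and WT_control mouse 26 (1.43 CPM, 20 UMIs), a gap within counting error. The 2 3xTg-AD groups overlapped, with and without mouse 34. The log2 fold change of Irf7 in 3xTg-AD_alcohol mice was 1.91 versus WT_control (SE 0.52, edgeR adjusted p = 0.0483) and 2.46 versus WT_alcohol (SE 0.54, edgeR adjusted p = 0.0322). Without mouse 34 these were 0.80 (SE 0.30, edgeR adjusted p = 0.166) and 1.35 (SE 0.30, edgeR adjusted p = 0.0618). The first call was lost in 13 of the 16 fits that each left out 1 mouse (edgeR adjusted p up to 0.166) and under 5 of the 8 other alternatives (edgeR adjusted p up to 0.153). The second was lost without any 1 of the WT_alcohol mice or 3xTg-AD_alcohol mouse 31 or 34 (edgeR adjusted p up to 0.115). It was also lost without the 3 mice with the most of the ribosomal RNA-like transcript Gm42418 (edgeR adjusted p = 0.0541). Versus 3xTg-AD mice the log2 fold change was 1.17 (SE 0.49, edgeR adjusted p = 0.334), and 0.06 (SE 0.29) without mouse 34.

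**Figure D3:**
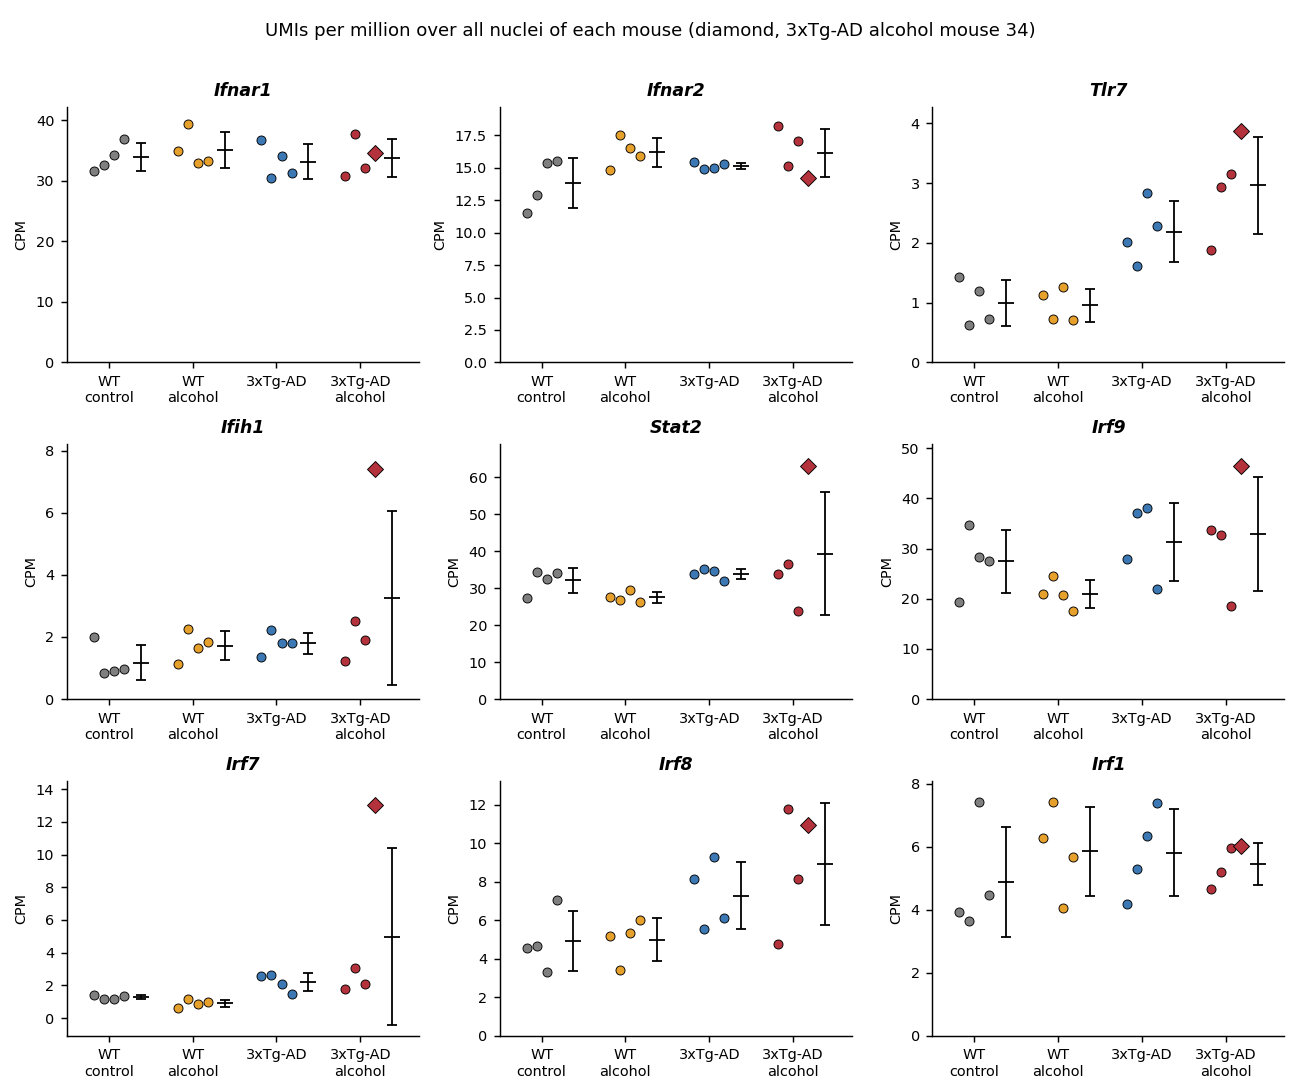
Levels of the 9 members over all nuclei of each mouse (CPM, linear axis) by group. Points are mice, the diamond is 3xTg-AD_alcohol mouse 34, and bars give mean ± SD (n = 4). For Tlr7 and Irf7 the 8 3xTg-AD mice lie above the 8 WT mice, with a gap between the nearest mice that is within counting error. The high group mean of Irf7, Ifih1 and Stat2 in 3xTg-AD_alcohol mice comes with mouse 34 (13.04, 7.41 and 63.1 CPM).

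Irf8 (chromosome 8, 120736358 to 120756694, plus strand) was a gene of microglia-like nuclei, at 289 CPM ± 74.5 (n = 16), with the lowest mouse at 158 and the highest of any other class at 92.1 CPM. In glutamatergic neurons it stood at 0.425% of its microglial level and in astrocytes at 0.922%, below the microglial markers summed (1.69% and 3.99%). Within microglia-like nuclei the groups overlapped, at 268 CPM ± 89.6 in WT_control, 254 ± 52.1 in WT_alcohol, 306 ± 76.5 in 3xTg-AD and 327 ± 81.4 in 3xTg-AD_alcohol mice. Over all nuclei, where the microglial share enters, Irf8 had a log2 fold change of 0.82 (SE 0.27, edgeR adjusted p = 0.0942) in 3xTg-AD_alcohol versus WT_control mice. In microglia-like nuclei it was 0.24 (SE 0.21). Irf8 lies wholly inside a long predicted gene on the same strand (Gm20388).

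Irf1 (chromosome 11, 53770014 to 53778374, plus strand) was highest in endothelial-like nuclei (33.1 CPM ± 28.8), then VLMC-like (17.5 ± 23.8) and microglia-like nuclei (14.8 ± 11.4), all of which overlapped. Its level differed among neurons. Glutamatergic neurons had 5.93 CPM ± 1.78 and GABAergic neurons 1.31 ± 0.97. Layer 2/3 intratelencephalic neurons had 8.14 CPM ± 1.86, above layer 5 extratelencephalic neurons (2.14 ± 1.76) in 16 of 16 mice and above parvalbumin interneurons (1.51 ± 1.17) in 16 of 16. Somatostatin interneurons gave 2 UMIs in all. Over all nuclei Irf1 overlapped between all groups, between 3.64 and 7.43 CPM, and passed no test.

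Stat2, Irf7, Irf1 and Ifih1 did not pass the filter on low counts in microglia-like nuclei, and their CPM were compared by two-sided exact permutation tests of 4 mice against 4, for which the smallest possible p is 0.0286. Of 20 such comparisons, 3 reached it. Irf7 was at 31.1 CPM ± 21.9 in 3xTg-AD_alcohol mice (37 UMIs), 7.79 ± 5.20 in WT_control mice (4 UMIs) and 2.47 ± 4.93 in WT_alcohol mice (1 UMI), with an exact p = 0.0286 against either. Irf1 was at 21.04 ± 9.84 in 3xTg-AD_alcohol and 5.38 ± 6.24 in WT_control mice (exact permutation p = 0.0286). With 20 comparisons and this smallest p, none of the 3 is a call. With no filter on low counts, Irf7 in microglia-like nuclei was called in 3xTg-AD_alcohol versus WT_alcohol mice (log2 fold change 4.07, SE 0.86, edgeR adjusted p = 0.000875), against the single UMI of the WT_alcohol group.

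Calls of members were then counted over the classes. As the members were chosen with earlier results of these data known, these counts are a description. Each comparison held 32 member tests in 6 classes (9 over all nuclei, 8 in glutamatergic neurons, 4 in GABAergic neurons, 4 in astrocytes, 5 in microglia-like and 2 in endothelial-like nuclei). In 3xTg-AD_alcohol versus WT_control mice 2 of 32 were called, against 2.3% of all gene tests, and over all nuclei alone 2 of 9 against 4.06%. Versus WT_alcohol mice 3 of 32 were called, against 0.646% of all tests, with 2 of 9 against 0.942% over all nuclei and 1 of 5 against 0.703% in microglia-like nuclei. None of these 3 calls held without mouse 34, and of the 2 versus WT_control mice only that of Tlr7 did. In microglia-like nuclei Tlr7 passed the filter on low counts through the 3xTg-AD_alcohol mice, so its count there is no independent support. The Tlr7 UMIs of these nuclei are also part of its sum over all nuclei. No member was called in 3xTg-AD versus WT_control mice (0.298% of all tests), in WT_alcohol versus WT_control mice (0.0204%), in 3xTg-AD_alcohol versus 3xTg-AD mice (0.339%) or in the interaction of genotype and alcohol (0.00272%). At an unadjusted edgeR p of at most 0.05 these 4 had 3, 0, 2 and 1 member tests. The share of all gene tests at that unadjusted p is not given, so these counts are a description. DESeq2 also called none. The comparisons share groups, so their calls are not independent of each other. The median log2 fold change of the 9 members over all nuclei was 0.27 in 3xTg-AD_alcohol versus WT_control, 0.68 versus WT_alcohol (0.26 and 0.20 without mouse 34), 0.23 in 3xTg-AD versus WT_control and -0.01 in WT_alcohol versus WT_control mice. The median over all 16767 genes tested lay between -0.01 and 0.00 in these 4.

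**Figure D4:**
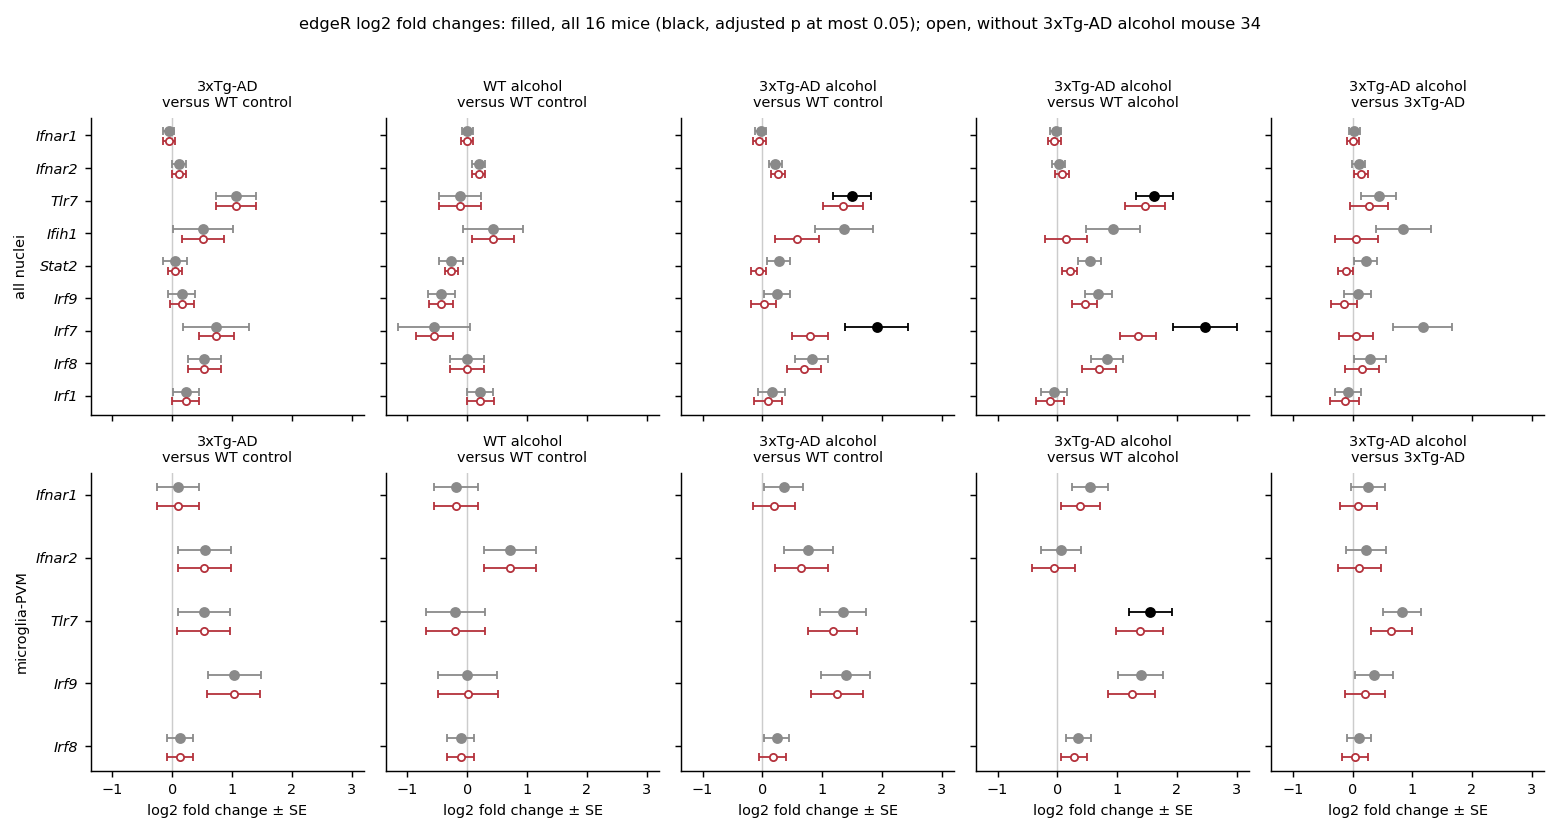
edgeR log2 fold changes (± SE) of the members over all nuclei (upper row) and in microglia-like nuclei (lower row) in 5 comparisons. Filled points use all 16 mice and are black where the adjusted p is at most 0.05, and open points leave out 3xTg-AD_alcohol mouse 34. Without that mouse Irf7 in 3xTg-AD_alcohol versus WT_control mice goes from 1.91 to 0.80, whereas Tlr7 goes from 1.505 to 1.346.

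Because Tlr7 and Irf7 separated the genotypes, the 8 3xTg-AD mice were also set against the 8 WT mice in the same fit, a comparison chosen after these values were seen. Of 32 member tests 3 were called, against 1.95% of all tests. As the comparison was chosen for the separation of Tlr7 and Irf7, their calls in it are no independent support. Tlr7 (log2 fold change 1.34, SE 0.23, edgeR adjusted p = 0.00258) and Irf7 (1.60, SE 0.39, edgeR adjusted p = 0.0287) were higher over all nuclei, where 3.28% of genes were called. Without mouse 34 they were at 1.26 (edgeR adjusted p = 0.00736) and 1.05 (edgeR adjusted p = 0.0118). The Irf7 call was lost without WT_alcohol mouse 6 or 17 or 3xTg-AD mouse 12 or 13 (edgeR adjusted p up to 0.0621), and without the 3 mice with the most of the ribosomal RNA-like transcript Gm42418 (edgeR adjusted p = 0.129). Of 16767 genes over all nuclei, 42 (0.25%) had all 8 3xTg-AD mice above all 8 WT mice, and Tlr7 and Irf7 were among them. For both, the gap between the nearest mice lay within counting error. In microglia-like nuclei Irf9 was higher (1.21, SE 0.29, edgeR adjusted p = 0.0146), where 0.971% of genes were called. Irf9 passed the filter on low counts there through the 3xTg-AD groups, with every WT mouse at 42.1 CPM or less. The call is therefore no independent support. That call was lost without 3xTg-AD mouse 13, 3xTg-AD_alcohol mouse 31 or WT_control mouse 36 (edgeR adjusted p between 0.0559 and 0.0628), and held without mouse 34 (1.14, edgeR adjusted p = 0.0428). It was also lost with DESeq2, and with classes set from the marker counts of single nuclei Irf9 was at 0.74 (edgeR adjusted p = 0.367). The astrocyte markers in these nuclei summed to 1274 to 2079 CPM in WT_control and 1897 to 2512 in WT_alcohol mice, and to 758 to 1451 in 3xTg-AD and 1037 to 1663 in 3xTg-AD_alcohol mice. Their part in the level of Irf9 was not tested. Tlr7 in microglia-like nuclei was at 1.04 (SE 0.29, edgeR adjusted p = 0.0511), just short of a call. In the 8 alcohol-exposed versus the 8 air mice no member was called (0 of 32), against 1.83% of all tests. None was at an unadjusted edgeR p of at most 0.05, for which the share of all tests is not given.

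Mouse 34 stood apart in some members and not in others. How many of all genes stood apart in it was not counted. In 3xTg-AD_alcohol versus 3xTg-AD mice 0.948% of all genes were called in any class, and 0.223% without mouse 34. Over all nuclei its Stat2 (63.1 CPM) compared with 23.9 to 36.6 in the other 15 mice, Irf9 (46.5) with 17.6 to 38.1, Irf7 (13.04) with 0.636 to 3.06, Ifih1 (7.41) with 0.831 to 2.50 and Tlr7 (3.86) with 0.624 to 3.15. Ifnar1 (34.5), Ifnar2 (14.2), Irf1 (6.04) and Irf8 (10.9) lay within the range of the others. In glutamatergic neurons its Stat2 was at 65.0 CPM (others 28.5 to 40.2), Irf7 at 11.1 (0.704 to 2.92) and Ifih1 at 4.65 (0.567 to 1.73), while Irf9 (42.6) and Irf8 (1.19) lay within the others. In astrocytes its Stat2 (108 CPM, others 19.6 to 40.8), Irf9 (97.7, others 12.1 to 56.5) and Irf7 (26.9, others 0 to 5.12) were the highest of the 16, as were Irf8, Irf1, Ifih1 and Tlr7 there on 2 to 15 UMIs each, and the receptor genes were not. In microglia-like nuclei Stat2 (69.2, others 10.97 to 50.4), Irf7 (62.3, others 0 to 29.7), Tlr7 (114, others 9.86 to 93.1) and Ifnar1 (90.0, others 38.4 to 78.8) were the highest. In GABAergic neurons Stat2 (44.98), Irf7 (7.20, 8 UMIs) and Ifih1 (3.60, 4 UMIs) were just above the others, and Ifnar2 (5.40, 6 UMIs) was the lowest of the 16. Mouse 34 also gave the fewest nuclei (4955) and the highest median UMIs per nucleus (2175). Their part in these levels was not tested.

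**Figure D5:**
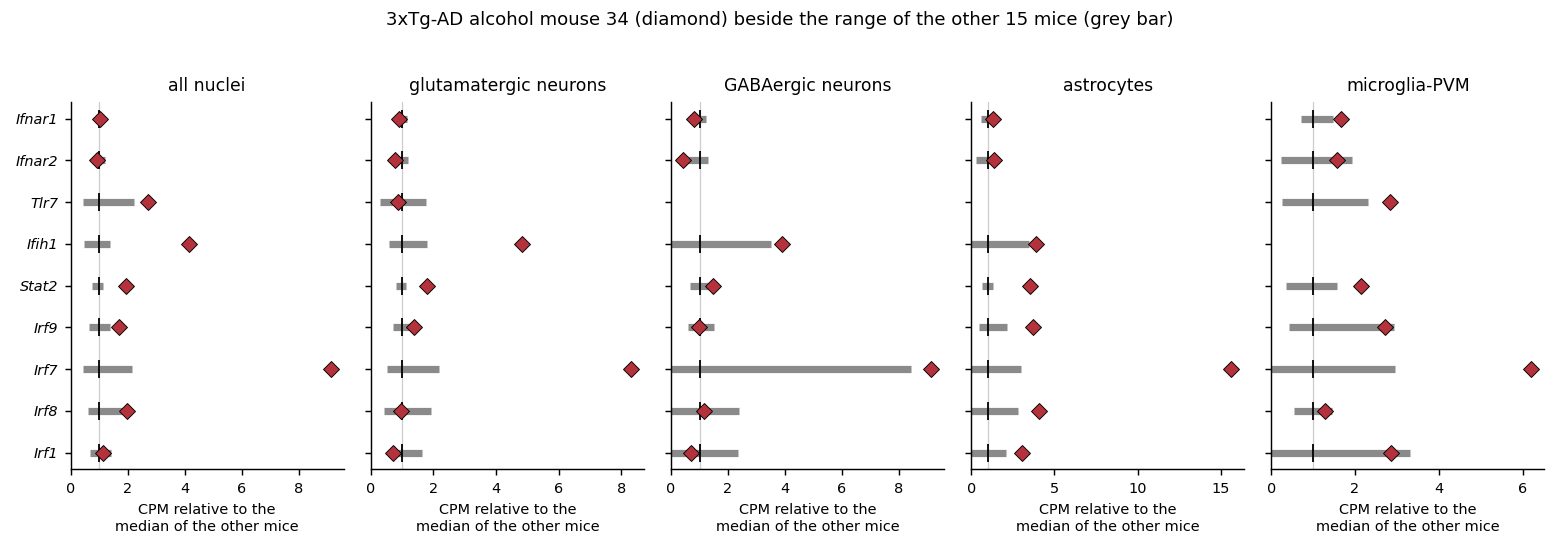
Level of each member in 3xTg-AD_alcohol mouse 34 (diamond) divided by the median of the other 15 mice, over all nuclei and in 4 classes (linear axes, each panel with its own range). Grey bars span the other mice, and a member whose median in the others is 0 is left blank. Irf7, Ifih1 and Stat2 lie beyond the bar in glutamatergic neurons and over all nuclei, and both receptor genes lie within it there.

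The other genes of the pathway were taken from lists chosen with earlier results of these data known, so their counts are a description. A gene was counted when it was called in at least 1 class. In 3xTg-AD_alcohol versus WT_control mice 5.93% of 16768 genes were called in this way in either direction, and 2.47% were called higher. Of the listed genes tested, 1 of 6 other receptor and kinase genes was called (Jak2, lower), 1 of 5 other STAT factors (Stat6, lower), 0 of 7 other IRF factors, 0 of 8 other nucleic acid sensors, 3 of 12 adaptors and kinases and 1 of 8 inhibitors (Usp18, higher). Stat6, the factor of the interleukin 4 response, was lower in glutamatergic neurons (log2 fold change -1.64, SE 0.30, edgeR adjusted p = 0.00512). Irak4, a kinase below the Toll-like receptors, was lower there too (-1.21, SE 0.26, edgeR adjusted p = 0.0174). Mavs, the adaptor of Ifih1, and Unc93b1, which carries Tlr7 to endosomes, were higher over all nuclei (0.83, SE 0.22 and 0.79, SE 0.21, edgeR adjusted p = 0.0442 for each), and their names, like those of Jak2 and Usp18, were picked after their values were seen. Without mouse 34, Stat6 and Irak4 were called lower again, and Jak2, Mavs, Unc93b1 and Usp18 were not called. The listed genes, induced effectors included, were not read in the fit without the 3 mice richest in Gm42418. These were air mice, WT_control mice 26 and 27 and 3xTg-AD mouse 12.

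Of the 20 induced effectors tested, 12 were called higher in at least 1 class in 3xTg-AD_alcohol versus WT_control mice and 7 versus WT_alcohol mice, where 0.871% of genes were called higher. None was called higher in 3xTg-AD_alcohol versus 3xTg-AD mice (0.25% of all genes), in the interaction of genotype and alcohol (0.00596%), in 3xTg-AD versus WT_control (0.233%) or in WT_alcohol versus WT_control mice (0.0358%). Without mouse 34 the counts were 10 versus WT_control (1.47% of all genes) and 5 versus WT_alcohol mice (0.564%), of 21 tested, and 1 (H2-K1) in 3xTg-AD versus WT_control mice (0.229%). In the 3xTg-AD versus WT groups, a comparison added after the data were seen, 12 of 20 were called higher (2.33% of all genes). Without mouse 34 it was 13 of 21 (2.0%). In the alcohol versus air groups it was 2 of 20 (1.95%). The genes named next are those of 3xTg-AD_alcohol versus WT_control mice, where Rsad2 was not called without mouse 34. B2m, the light chain of MHC class I, was higher in microglia-like nuclei (log2 fold change 1.79, SE 0.32), as were the class I heavy chains H2-K1 (2.38, SE 0.37) and H2-D1 (2.48, SE 0.50). Ifitm3, a membrane restriction factor, was higher over all nuclei (2.12, SE 0.30), as were the virus-restricting Bst2 (3.03, SE 0.53), Apobec3 (1.69, SE 0.30), Rsad2 (3.13, SE 0.66) and Trim30a (2.93, SE 0.59), and Rtp4 (2.75, SE 0.57). Ifi27 was higher in OPC (1.69, SE 0.29). The edgeR adjusted p of these 10 lay between 0.000252 and 0.0135.

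The genes whose levels ran most like each member were found over 139 class-by-mouse profiles and 12897 genes, as Pearson's r of log2(CPM + 1), a description in which profiles share libraries and depth. Irf8 ran with P2ry6 (r = 0.863), Naip6 (0.863) and Gm10790 (0.850). Ifnar1 ran with Cox16 (0.712), Cd164 and Ripor1, and Ifnar2 with Blvrb (0.706), Selenop and Ybx1. Stat2 ran with Scap (0.649), Tctn2 and Rnf103, Irf9 with Tmem9 (0.566), Top3b and Dpf2, and Irf1 with Gpr146 (0.529), Erap1 and Maoa. Irf7, Ifih1 and Tlr7, with fewer than 500 UMIs, were left out.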

How the data were processed

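Single nuclei of the medial PFC of 16 mice were profiled with 10x Genomics 3′ v3.1 chemistry. The authors aligned the reads to mm10 with Cell Ranger 6.1.1, which uses STAR, and deposited UMI counts per gene and nucleus without normalization. The table holds 19999 genes and 114512 nuclei, all of which were used, and every column was assigned to its mouse by its name. Nuclei were clustered from the counts without the 9 members, the pathway genes and the mitochondrial and ribosomal protein genes (2000 variable genes, 30 principal components, 20 neighbors, Leiden at resolution 1.5, igraph 0.11.9, scikit-learn 1.9.0, Python 3.11.15). A cluster took a class when at least 3 of its markers were raised 3-fold over the lower quartile of clusters, or, for glutamatergic neurons, 1.5-fold over the named clusters of other classes, and markers of another class did not outnumber its own among its 10 leading genes. Nuclei with markers of a second class (1.15%) were kept, and dropped in an alternative, and no doublet caller was run. Names rebuilt in this way can differ from those of the study.

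Counts were summed per mouse and class and compared in R 4.3.3 by edgeR 4.0.16 (scaling by TMM, filterByExpr, robust quasi-likelihood fit with a mean per group over the 16 mice), after a test on simulated data. A mouse needed 10 nuclei of a class, and pericytes and smooth muscle cells were not tested. p-values were adjusted by Benjamini-Hochberg over all genes of a class and comparison, and calls were made up to an adjusted p of 0.05. There were 6 planned comparisons, and 2 more, over genotype and over alcohol, were added after the data were seen, as were the pathway counts without mouse 34. The members and lists were chosen with earlier results of these data known. Named genes are the 9 members, the 12 genes of the pathway lists with the smallest adjusted p, and the 3 genes whose levels ran most like each member with at least 500 UMIs. Replicates are separate mice. Alternatives were DESeq2 1.42.0, RLE factors, no filter on low counts, a stricter filter on nuclei (500 genes, at most 5% mitochondrial UMIs), classes from marker counts of single nuclei, the share of ribosomal RNA-associated UMIs as a covariate, leaving out the 3 mice with the most of the ribosomal RNA-like transcript Gm42418, and leaving out each mouse. Gene positions are those of GENCODE M21 on GRCm38, and sequences those of RefSeq on GRCm38.p6, which held 8 of the 9 members (not Tlr7). Part of the 3xTg-AD genotype is not reported here.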

Additional observations from a re-analysis of the deposited data

Results flagged for a closer look

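In the 36 groups of 4 mice formed by the 9 members and the 4 groups, the highest or lowest mouse was set against the nearest other one over all nuclei. By chance about 1 in 20 groups would show such a gap, and 2 did. Irf7 in 3xTg-AD_alcohol mouse 34 was at 13.04 CPM, with the nearest mouse of its group at 3.06 CPM. Ifih1 in WT_control mouse 26 was at 1.999 CPM, with the nearest mouse of its group at 0.955 CPM. Mouse 26 was also 1 of the 3 mice with the most Gm42418 (29047 CPM, while the mice outside these 3 had at most 4249.5 CPM), and the part of that transcript in the level of Ifih1 was not tested.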

How the results depend on the processing

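No member was called in 3xTg-AD versus WT_control, WT_alcohol versus WT_control, 3xTg-AD_alcohol versus 3xTg-AD, the interaction, or the alcohol versus air groups under any of the 8 alternatives or without any 1 mouse (0 to 0). The count in 3xTg-AD_alcohol versus WT_control mice (2) was 5 with no filter on low counts, where Irf7 in endothelial-like nuclei and Ifih1, Irf9 and Tlr7 in microglia-like nuclei joined Tlr7 over all nuclei. It was 1 with the stricter filter on nuclei, when nuclei holding markers of another class were dropped, and when the 3 mice richest in Gm42418 were, and 1 to 4 without 1 mouse. With the ribosomal RNA covariate it was 2 again, with Tlr7 in microglia-like nuclei called in place of Irf7 over all nuclei. The count versus WT_alcohol mice (3) was 6 with no filter and 0 to 4 without 1 mouse, and the count in the 3xTg-AD versus WT groups (3) was 6 with no filter and 2 to 6 without 1 mouse. Tlr7 over all nuclei was called under all 8 alternatives in these 3 comparisons. Setting classes from the marker counts of single nuclei leaves sums over all nuclei unchanged, so that alternative is no check of values over all nuclei. Among the log2 fold changes at an unadjusted p of at most 0.05, the direction turned once, for Irf7 in glutamatergic neurons in 3xTg-AD_alcohol versus WT_control mice, at 1.48 with all mice and between -0.0197 (without mouse 34) and 1.78 (without mouse 31) when 1 mouse was left out. Smaller fold changes turned too, such as that of Stat2 over all nuclei in that comparison (0.27, and -0.06 without mouse 34). Of the fold changes at that p, 270 values under the other alternatives kept their side of the threshold, 10 lost a call and 12 gained one. No paired analysis was possible because the groups share no mouse numbers. Members such as Tlr7 and Irf7 were sparse in most classes, and the part of depth in this was not tested.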
